A study of Homo sapiens with 8 samples.

Results

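The mRNAs of 38 genes of the apoptosis machinery were followed in A375 cells, a human melanoma line, after HSF1 knockdown and HSP90 inhibition. The genes were chosen by symbol as a list of death effector domain proteins, death receptors and adaptors, caspases and apoptosome genes, and relatives of BCL2 with the inhibitors of apoptosis. All probe sets of the HG-U133 Plus2 array that carry a single one of these symbols were taken, which gave 117 probe sets for 36 of the 38 genes, out of 19775 genes on the array. The other 2 listed symbols had no probe set with a single symbol in the annotation used and are not analysed here.

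The 8 arrays held 4 groups of 2. Induced shHSF1 cells with NVP-HSP990 carried a hairpin against HSF1, switched on by Doxycycline for 3 days, and then received 100 nM NVP-HSP990, an inhibitor of the chaperone HSP90, for 3 h. Uninduced shHSF1 cells with NVP-HSP990 carried the same hairpin and received the inhibitor without Doxycycline. Induced shNTC cells with DMSO and uninduced shNTC cells with DMSO carried a non-targeting hairpin and received 0.1% DMSO in place of the inhibitor, with and without Doxycycline. Both hairpins were stably introduced and stand under Doxycycline control, and the arrays hold only this 1 cell line. The sample titles separate cells with and without Doxycycline, while the growth protocol in the labels gives 100 ng/mL for all samples, and the titles were followed. All 4 inhibitor arrays come from shHSF1 cells and all 4 DMSO arrays from shNTC cells, so the inhibitor and the line cannot be told apart. Nothing in the labels says that replicate arrays stem from separate cultures, so p-values measure only how far arrays differ, which may be technical.

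Cells die by apoptosis along 2 routes that meet in the caspases, proteases which take the cell apart. In the extrinsic route, a ligand gathers a death receptor at the membrane, and adaptors with death domains and death effector domains bring initiator caspases together. In the intrinsic route, BH3-only proteins and the pro-survival relatives of BCL2 decide whether BAX and BAK1 open the outer mitochondrial membrane, after which cytochrome c and APAF1 activate CASP9, and XIAP holds the active caspases in check. HSF1 is the transcription factor of the heat shock response, released when HSP90 is inhibited, and melanoma cells are known for a high threshold to both routes.

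The values are MAS5 signals on a linear scale, with the trimmed mean of each array set to 150. The median signal was 10.6 to 14.2 depending on the array, and any pair of arrays, of 28, correlated at 0.980 to 0.995 in log2 values. Changes are differences in log2(signal + 16) from limma, over 12672 genes that reached the median signal of the array in 2 or more arrays, and the threshold for a call was an adjusted p of 0.05. Adding 16 shrinks the changes of dim genes. HSF1, the target of the hairpin, had signals of 5.5 and 7.3 in induced shHSF1 cells with NVP-HSP990, 99.0 and 42.5 in uninduced shHSF1 cells with NVP-HSP990, 36.6 and 47.9 in induced shNTC cells with DMSO, and 38.2 and 47.3 in uninduced shNTC cells with DMSO. The first array of uninduced shHSF1 cells stands apart from the other non-knockdown arrays in HSF1. Of 9 melanocyte lineage genes measured, 5 were at or above the array median (MITF, SOX10, S100B, S100A1 and GPNMB), while PMEL, MLANA and TYR were at 5.8 or below in every array. Hepatocyte and colon epithelial markers were each represented by 1 of 8 genes and lymphocyte and macrophage markers by 0 of 6. RNA quality, read from ACTB as the 3-prime over the 5-prime signal, gave ratios of 4.73 to 18.9 except for 46.8 in the second array of induced shNTC cells.

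DEDD2, which encodes a death effector domain protein that binds DEDD and acts in the nucleus, was the listed gene called with both the inhibitor and the knockdown. HSF1 binds inverted repeats of the 5-base unit nGAAn, so the 250 bases before each of the gene's 2 start sites in the RefSeq promoter table (build GRCh38.p14) are shown with every GAA or TTC in capitals. They lie on the minus strand of chromosome 19, at chr19:42220135-42220384 for the upstream start and at chr19:42217678-42217927 for the downstream start.
DEDD2, upstream start: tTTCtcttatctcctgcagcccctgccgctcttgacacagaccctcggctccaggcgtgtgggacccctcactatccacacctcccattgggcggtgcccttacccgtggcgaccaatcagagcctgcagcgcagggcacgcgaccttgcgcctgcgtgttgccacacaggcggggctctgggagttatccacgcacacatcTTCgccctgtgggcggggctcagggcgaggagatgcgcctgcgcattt
DEDD2, downstream start: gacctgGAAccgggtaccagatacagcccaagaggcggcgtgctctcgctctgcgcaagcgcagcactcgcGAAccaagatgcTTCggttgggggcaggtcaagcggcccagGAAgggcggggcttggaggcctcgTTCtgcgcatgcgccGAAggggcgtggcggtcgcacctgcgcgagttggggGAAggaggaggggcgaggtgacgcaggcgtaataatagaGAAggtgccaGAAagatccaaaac
The upstream stretch held 2 such triplets and the downstream stretch 9, and a triplet of this kind occurs in 99.1% of the 35116 stretches in the table, so its presence alone is common. Inverted pairs of units, GAANNTTC or TTCNNGAA, were searched on both strands in windows from 250 bases before to 50 after the start, each motif being its own reverse complement. Neither exact pair was found in the DEDD2 windows. Sites outside the windows, or with mismatches to these motifs, were not searched. By chromatin immunoprecipitation, the study reported HSF1 bound at the DEDD2 promoter after NVP-HSP990, with primers placed around a heat shock element. Whether that element lies within the windows searched here was not tested. GAANNTTC was in 6.77% of all windows and at 8.21% of all genes in the table, and TTCNNGAA in 7.74% and at 9.46%. Among 28 listed genes in the table, with 52 windows, 5 held the first (BAK1, BMF, CASP2, CASP8 and CFLAR) and 5 the second (BID, CASP6, CFLAR, DIABLO and PEA15). The form with 3 alternating units, each 2 bases from the next, holds both pairs and was in 0.490% of all windows and in 0 of the 52. Stretches from PEA15 and CFLAR, relatives of DEDD2 by the death effector domain, are shown because their transcripts are set beside DEDD2 in what follows, with the inverted pair in capitals. They begin at chr1:160205228-160205255 for PEA15, and at chr2:201118629-201118656 and chr2:201132744-201132771 for 2 starts of CFLAR, all on the plus strand, with the pair 146, 77 and 27 bases before the start.
PEA15: cctaggagtcTTCCAGAAccccagcccc
CFLAR, upstream start: gcagacaggaTTCTAGAAtttatgtctt
CFLAR, downstream start: attctttaagGAAGTTTCcattctctga
These matches are letters in a window and not measured sites.

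The question of the knockdown comparison is which death genes depend on HSF1 while HSP90 is inhibited. Of 35 listed genes that passed the filter on low signals, 1 was called lower, DEDD2, and 0 were called higher, while 1.85% of all genes tested were called lower and 0.994% higher, 2.84% together. At an unadjusted p under 0.05 there were 8 of the 35 (22.9%) and 1943 of all 12672 genes (15.3%). The median change over the 35 genes was -0.15 on the log2 scale, against 0.0015 over all genes tested. In 15 of the 35 (42.9%) both arrays of induced cells were below both of uninduced cells and in 4 (11.4%) above, where 21.8% and 21.5% of all genes were. BCL2A1, which was below the median signal in both knockdown arrays, is among the 8 and among the 15.

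DEDD2 (probe set 225434_at, its only one) had signals of 233.6 and 155.2 in induced shHSF1 cells with NVP-HSP990, 795.0 and 625.8 in uninduced shHSF1 cells with NVP-HSP990, 226.9 and 198.4 in induced shNTC cells with DMSO, and 224.6 and 207.7 in uninduced shNTC cells with DMSO. The uninduced inhibitor arrays stood above the other 6 arrays, whose ranges overlapped. With the knockdown DEDD2 fell by 1.80 (log2, standard error 0.21, limma adjusted p = 0.00189, 2 arrays against 2). Over leaving out each array in turn the change was -2.08 to -1.53 and the adjusted p at most 0.0136. The study picked DEDD2 for follow-up on these same arrays, so its change is not independent evidence.

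**Figure D1:**
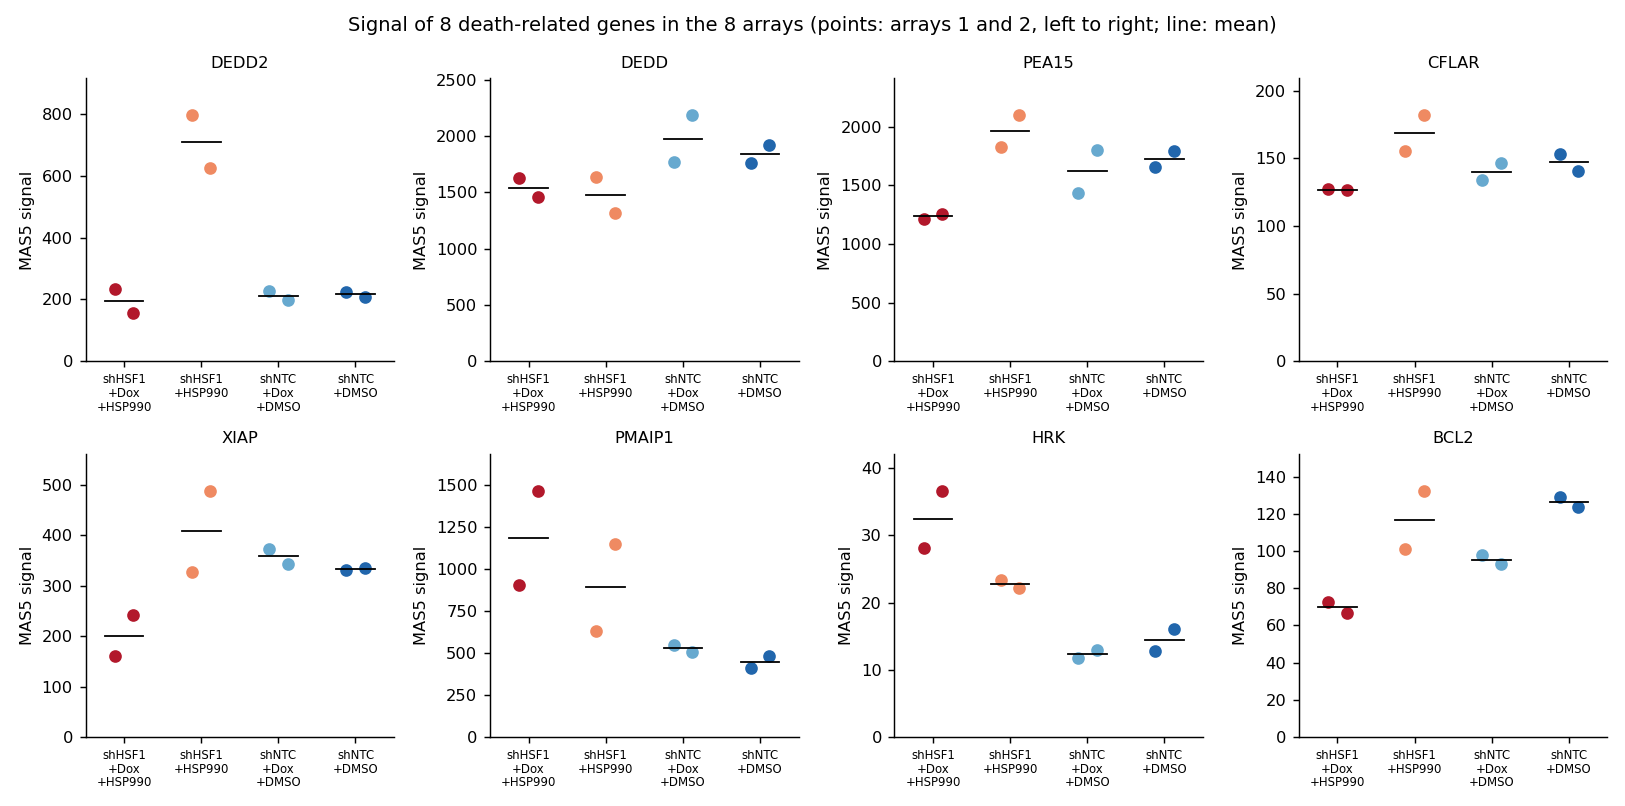
MAS5 signal (linear scale from 0) of 8 genes in the 4 groups, with induced shHSF1 cells with NVP-HSP990 at the left of each panel, 1 point per array and a line at the mean. DEDD2 is at 625.8 and 795.0 in uninduced shHSF1 cells with NVP-HSP990 and at 155.2 to 233.6 in the other 6 arrays, while DEDD is at 1316.1 to 2184.6 throughout.

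With the inhibitor and no knockdown, the comparison of uninduced shHSF1 cells with NVP-HSP990 against uninduced shNTC cells with DMSO, DEDD2 rose by 1.64 (standard error 0.21, adjusted p = 0.0117). It was the 1 listed gene called higher of 35, with 0 called lower, while 0.197% of all genes tested were called higher and 0.0237% lower, 0.221% together. On leaving out each array in turn the change stayed at 1.47 to 1.81, but the call did not always hold. Without the first array of uninduced shHSF1 cells the change was 1.47 (adjusted p = 0.0665), and without the first or the second array of uninduced shNTC cells it was 1.69 (adjusted p = 0.112) and 1.58 (adjusted p = 0.178). In 9 of the 35 genes (25.7%) the inhibitor arrays lay above and in 5 (14.3%) below the DMSO arrays, where 17.6% and 15.6% of all genes did. Changes given throughout for the inhibitor, or for the inhibitor alone, are from this comparison, in which the line differs too.

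When knockdown and inhibitor were set together against induced shNTC cells with DMSO, DEDD2 changed by -0.14 (standard error 0.21, adjusted p = 0.768), with a 95% interval of -0.61 to 0.33. Doxycycline in shNTC cells gave -0.024 (adjusted p = 1.0). The interaction, which is the Doxycycline change in shHSF1 cells given NVP-HSP990 less the Doxycycline change in shNTC cells given DMSO, was -1.78 (standard error 0.30, adjusted p = 0.0261), and DEDD2 was the 1 listed gene called in it, where 0.789% of all genes were called, 0.481% lower and 0.308% higher. That call was lost with no filter on low signals (adjusted p = 0.0533) and on leaving out any array but the first of induced and the second of uninduced shHSF1 cells, with adjusted p of 0.0659 to 0.136 and changes of -1.87 to -1.51.

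DEDD, the paralog that shares the death effector domain and binds DEDD2, was called in no comparison. Its brightest probe set, 215158_s_at, had signals of 1623.8 and 1456.7 in induced shHSF1 cells with NVP-HSP990, 1634.3 and 1316.1 in uninduced shHSF1 cells with NVP-HSP990, 1772.7 and 2184.6 in induced shNTC cells with DMSO, and 1761.8 and 1917.0 in uninduced shNTC cells with DMSO. The 4 inhibitor arrays were all below the 4 DMSO arrays. The knockdown change was 0.07 (standard error 0.17, adjusted p = 0.918), with a 95% interval of -0.32 to 0.45, and the inhibitor change was -0.32 (standard error 0.17, adjusted p = 1.0). Its 2 dimmer probe sets, 202480_s_at and 211255_x_at, gave knockdown changes of -0.05 and 0.46 (adjusted p = 0.966 and 0.641). On 211255_x_at the induced shNTC arrays were far apart, at 155.0 and 57.5, the second being the array with the high ACTB ratio, whose part in this was not tested.

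Within each array, log2 DEDD2 minus log2 DEDD was -2.72 and -3.10 in induced shHSF1 cells with NVP-HSP990, -1.02 and -1.05 in uninduced shHSF1 cells with NVP-HSP990, -2.88 and -3.36 in induced shNTC cells with DMSO, and -2.89 and -3.11 in uninduced shNTC cells with DMSO. This difference moved by -1.87 with the knockdown and by 1.96 with the inhibitor, and in both comparisons the arrays of the groups did not overlap (exact permutation test, two-sided, p = 0.333, the smallest that 2 arrays against 2 allow).

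FADD, CFLAR and PEA15, the other death effector domain genes, were called in no comparison. FADD is the adaptor that recruits caspase-8 to death receptors, CFLAR encodes its inactive relative c-FLIP, and PEA15 is a cytoplasmic death effector domain protein that also binds ERK. PEA15 (200788_s_at) had signals of 1214.1 and 1256.6 in induced shHSF1 cells with NVP-HSP990, 1825.0 and 2095.8 in uninduced shHSF1 cells with NVP-HSP990, 1436.9 and 1799.0 in induced shNTC cells with DMSO, and 1656.6 and 1795.1 in uninduced shNTC cells with DMSO. Both knockdown arrays were below all others, with a change of -0.66 against uninduced shHSF1 cells (standard error 0.16, adjusted p = 0.0652). PEA15 was called in 4 of 20 alternative settings, among them quantile normalization (adjusted p = 0.0114), and not in 16. Over the alternatives its change ran from -0.76 to -0.29. Its other probe set, 200787_s_at, did not share the pattern, with signals of 1050.6 and 975.0 in induced and 905.4 and 1025.1 in uninduced shHSF1 cells with NVP-HSP990 (change 0.07, adjusted p = 0.901). Against induced shNTC cells with DMSO, the knockdown cells were at -0.38 on 200788_s_at and at 0.41 on 200787_s_at, opposite in sign. CFLAR changed by -0.37 with the knockdown (adjusted p = 0.378), and 7 of its 8 tested probe sets had a negative change, from -0.37 to 0.26 over all 8. FADD changed by -0.15 (adjusted p = 0.798).

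**Figure D2:**
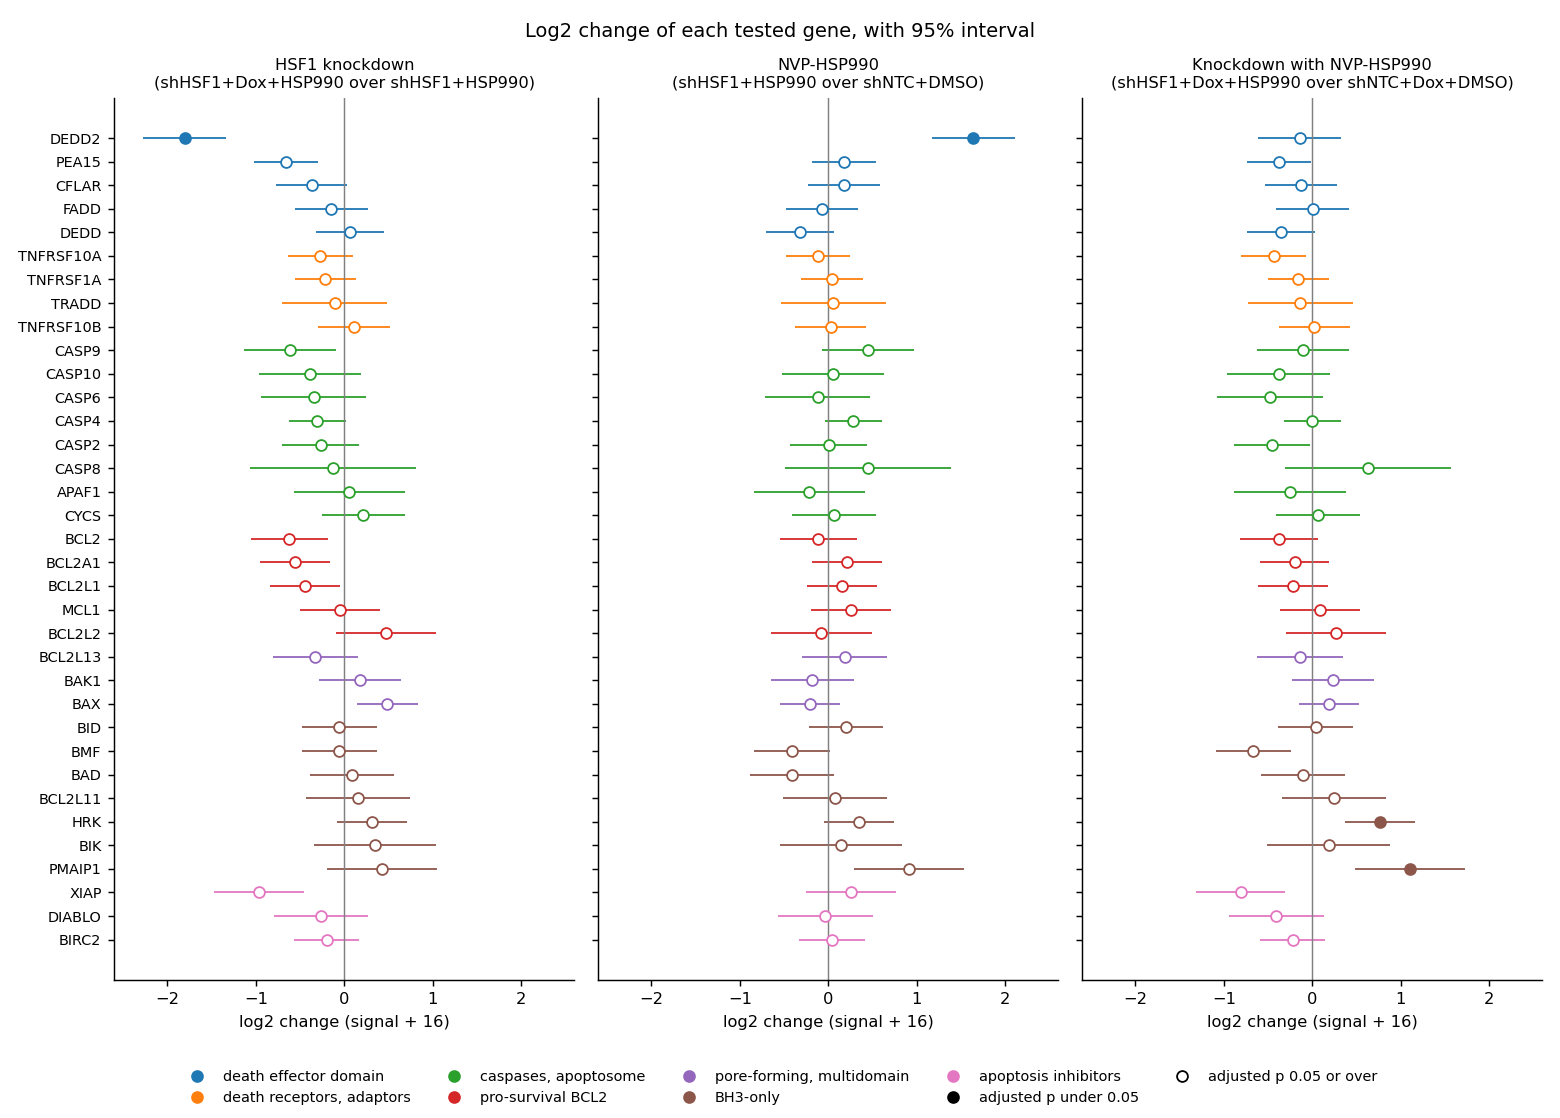
Log2 change (signal + 16) of the 35 tested genes in 3 comparisons, ordered by role and then by the knockdown change, with points at the limma estimate and lines for its 95% interval. Filled points are at an adjusted p under 0.05, which are DEDD2 in the knockdown and NVP-HSP990 comparisons and HRK and PMAIP1 in the comparison of both together. BMF passed the filter only through the DMSO arrays, and BCL2A1 was below the median signal in both knockdown arrays.

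The death receptors and adaptors gave 0 calls in 4 tested genes in each of the 5 comparisons. TNFRSF10A and TNFRSF10B are the receptors of the ligand TRAIL that carry a death domain, TNFRSF10D is a decoy for the same ligand, and TNFRSF1A signals for TNF through the adaptor TRADD. TNFRSF10D was below the array median in all 8 arrays, at 11.0 or less, and was not tested. TNFRSF10A (231775_at) had signals of 451.0 and 476.1 in induced shHSF1 cells with NVP-HSP990, 602.6 and 524.2 in uninduced shHSF1 cells with NVP-HSP990, 610.5 and 657.2 in induced shNTC cells with DMSO, and 537.9 and 691.8 in uninduced shNTC cells with DMSO. The knockdown arrays were the lowest of the 8, but the change of -0.27 (standard error 0.16, adjusted p = 0.496) did not pass. All 3 of its tested probe sets gave a negative change, from -0.27 to -0.13. All 3 had non-overlapping arrays, where 21.8% of all genes tested had arrays below without overlap. With the inhibitor alone TNFRSF10A changed by -0.12 (adjusted p = 1.0). TNFRSF10B had positive changes on all 4 tested probe sets. On 209294_x_at the signals were 166.3 and 189.9 in induced and 132.7 and 101.8 in uninduced shHSF1 cells with NVP-HSP990 (change 0.55, adjusted p = 0.216 over all probe sets), whereas its brightest, 209295_at, changed by 0.11 (adjusted p = 0.859). TNFRSF1A and TRADD changed by -0.21 and -0.11 (adjusted p = 0.589 and 0.916).

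Caspases and the apoptosome gave 0 calls in 8 tested genes in any comparison, with a median knockdown change of -0.29 and a range of -0.61 to 0.21. In 5 of the 8 both knockdown arrays lay below both uninduced arrays, where 21.8% of all genes tested did. CASP9, the initiator that APAF1 activates, had signals of 160.1 and 137.5 in induced shHSF1 cells with NVP-HSP990, 301.9 and 183.0 in uninduced shHSF1 cells with NVP-HSP990, 148.7 and 173.7 in induced shNTC cells with DMSO, and 175.1 and 162.1 in uninduced shNTC cells with DMSO. One array, the first of uninduced shHSF1 cells, was high and the other 7 lay between 137.5 and 183.0. The change was -0.61 (standard error 0.23, adjusted p = 0.228), and -0.28 (adjusted p = 0.748) without that array, which is also the array with the high HSF1 signal.

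CASP4, an inflammatory caspase that senses bacterial lipopolysaccharide, had signals of 656.9 and 664.6 in induced shHSF1 cells with NVP-HSP990, 794.1 and 847.9 in uninduced shHSF1 cells with NVP-HSP990, 718.7 and 607.9 in induced shNTC cells with DMSO, and 680.1 and 662.4 in uninduced shNTC cells with DMSO on its brightest probe set 209310_s_at. Uninduced inhibitor arrays were the highest, with a change of 0.28 with the inhibitor (standard error 0.15, adjusted p = 1.0). Its dim probe set 213596_at had 33.3 and 54.1 in uninduced shHSF1 cells with NVP-HSP990, against 12.3 and 14.9 in uninduced shNTC cells with DMSO (change 0.99, unadjusted p = 0.00197, adjusted p = 0.412). CASP8, the initiator of the extrinsic route, differed more within the inhibitor groups than between them, at 163.1 and 422.4 in induced and 198.3 and 421.1 in uninduced shHSF1 cells with NVP-HSP990. CASP10, its relative, and the effector CASP6 changed by -0.39 and -0.35 with the knockdown (adjusted p = 0.551 and 0.618). CASP2, a nuclear initiator caspase, changed by -0.26 (adjusted p = 0.597), APAF1 by 0.06 and CYCS, cytochrome c, by 0.21 (adjusted p = 0.961 and 0.725).

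Among the 5 pro-survival relatives of BCL2, 0 were called. With the knockdown 3 were at an unadjusted p under 0.05, each with a negative change, where 15.3% of all genes tested were at such a p in either direction. BCL2A1, a lineage-dependent survival gene of melanoma, had signals of 7.5 and 9.8 in induced shHSF1 cells with NVP-HSP990, 21.4 and 19.2 in uninduced shHSF1 cells with NVP-HSP990, 15.7 and 9.3 in induced shNTC cells with DMSO, and 15.5 and 15.3 in uninduced shNTC cells with DMSO. These signals lie about the array medians, and BCL2A1 reached its array's median in 5 of the 8. Both knockdown arrays were below theirs, of 10.9 and 13.5, so it passed the filter only through arrays of the other groups. BCL2A1 is 1 of the 3 genes counted above, so that count is a description, and no test of BCL2A1 is read here. Its change was -0.56, and -1.15 with 1 added before the log in place of 16. Over the alternative settings it went as far up as -0.21. BCL2 (203685_at) was at 72.7 and 66.6 in induced shHSF1 cells with NVP-HSP990, 101.0 and 132.2 in uninduced shHSF1 cells with NVP-HSP990, 97.6 and 92.8 in induced shNTC cells with DMSO, and 128.8 and 123.7 in uninduced shNTC cells with DMSO. Here the knockdown arrays were the lowest of the 8 (change -0.62, standard error 0.20, adjusted p = 0.145), and in shNTC cells too the induced arrays were below the uninduced arrays (change -0.36, adjusted p = 1.0). The other 2 tested BCL2 probe sets, 203684_s_at and 207004_at, changed by 0.14 and 0.31 with the knockdown, but both were near the floor. On 203684_s_at all shHSF1 arrays were at 7.8 or less, below their medians, and it passed the filter only through DMSO arrays. On 207004_at the signal reached the median in 2 of the 8 arrays.

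BCL2L1, which encodes BCL-XL, changed by -0.44 with the knockdown (adjusted p = 0.267) and BCL2L2, which encodes BCL-W, by 0.47 (adjusted p = 0.432). MCL1, a short-lived survival protein, had signals of 2021.7 and 2163.7 in induced shHSF1 cells with NVP-HSP990, 1986.2 and 2351.6 in uninduced shHSF1 cells with NVP-HSP990, 1600.3 and 2439.8 in induced shNTC cells with DMSO, and 1762.3 and 1857.2 in uninduced shNTC cells with DMSO. The groups with and without knockdown overlapped (change -0.05, 95% interval -0.50 to 0.40, adjusted p = 0.958), and with the inhibitor alone the change was 0.25 (adjusted p = 1.0).

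BAX, which with BAK1 forms the pore in the outer mitochondrial membrane, had signals of 711.2 and 712.9 in induced shHSF1 cells with NVP-HSP990, 496.5 and 511.1 in uninduced shHSF1 cells with NVP-HSP990, 671.8 and 579.7 in induced shNTC cells with DMSO, and 641.2 and 533.2 in uninduced shNTC cells with DMSO. The knockdown arrays were the highest of the 8 and the uninduced inhibitor arrays the lowest. The knockdown change was 0.49 (standard error 0.15, unadjusted p = 0.00978, adjusted p = 0.144), and the inhibitor change was -0.21 (adjusted p = 1.0). A dimmer BAX probe set, 208478_s_at, gave 0.74 with the knockdown with a wider error (standard error 0.42, adjusted p = 0.486). BAK1 and BCL2L13, an outer membrane relative with a mitophagy role, changed by 0.18 and -0.33 (adjusted p = 0.780 and 0.543).

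The BH3-only genes, whose products trigger BAX and BAK1 or block the pro-survival proteins, held the 2 listed genes called in induced shHSF1 cells with NVP-HSP990 against induced shNTC cells with DMSO. Both were higher, 2 of 35, and 0 were called lower, while 2.84% of all genes tested were called higher and 2.99% lower in this comparison, 5.83% together. In 4 of the 35 (11.4%) the arrays lay above and in 11 (31.4%) below those of induced shNTC cells, where 23.7% and 20.9% of all genes did.

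PMAIP1, which encodes NOXA, the BH3-only partner of MCL1, had signals on 204286_s_at of 902.6 and 1461.7 in induced shHSF1 cells with NVP-HSP990, 629.5 and 1147.9 in uninduced shHSF1 cells with NVP-HSP990, 549.0 and 505.3 in induced shNTC cells with DMSO, and 409.3 and 479.5 in uninduced shNTC cells with DMSO. All 4 inhibitor arrays were above all 4 DMSO arrays, and in both inhibitor groups the second array was the higher. PMAIP1 rose by 1.10 against induced shNTC cells (standard error 0.28, adjusted p = 0.0473). This call was lost in 11 of 20 alternatives, and without the second array of induced shHSF1 cells the change was 0.76 (adjusted p = 0.277). It was lost as well without the first or second array of induced shNTC cells (adjusted p = 0.105 and 0.191) and of uninduced shNTC cells (adjusted p = 0.0697 and 0.0708). The second PMAIP1 probe set, 204285_s_at, rose by 1.06 (standard error 0.21, adjusted p = 0.0242 over all probe sets), with signals of 703.1 and 694.1 in induced shHSF1 cells with NVP-HSP990, against 405.5 and 263.6 in induced shNTC cells with DMSO. With the inhibitor and no knockdown PMAIP1 changed by 0.92 (unadjusted p = 0.00804, adjusted p = 0.562), and with the knockdown by 0.43 (adjusted p = 0.533).

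HRK, a BH3-only gene best known from neurons, was dim. On 237187_at it had 28.2 and 36.6 in induced shHSF1 cells with NVP-HSP990, 23.3 and 22.2 in uninduced shHSF1 cells with NVP-HSP990, 11.8 and 13.0 in induced shNTC cells with DMSO, and 12.8 and 16.1 in uninduced shNTC cells with DMSO. Here too the inhibitor arrays were above the DMSO arrays, and the knockdown arrays were the highest. HRK rose by 0.76 against induced shNTC cells (standard error 0.18, adjusted p = 0.0339), and the change was 1.31 with 1 and 0.33 with 64 added before the log. The call was lost in 11 of 20 alternatives, among them the mean of all HRK probe sets (0.39, adjusted p = 0.167) and leaving out either array of induced shHSF1 cells (0.89 and 0.64, adjusted p = 0.0572 and 0.206), of induced shNTC cells (0.73 and 0.79, adjusted p = 0.100 and 0.111) or of uninduced shNTC cells (0.76 each, adjusted p = 0.068 and 0.066). With the knockdown and with the inhibitor alone it changed by 0.32 and 0.35 (adjusted p = 0.452 and 1.0).

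BMF, a BH3-only protein tied to the cytoskeleton, had signals of 5.9 and 5.8 in induced shHSF1 cells with NVP-HSP990, 8.2 and 5.3 in uninduced shHSF1 cells with NVP-HSP990, 25 and 13.4 in induced shNTC cells with DMSO, and 14.4 and 13.9 in uninduced shNTC cells with DMSO. It reached its array's median in the 4 DMSO arrays and in 0 of the 4 inhibitor arrays. It thus passed the filter only through the groups where it is high, so these signals are given as a description, and no test of BMF is read here. BMF still counts among the 35 tested genes and is drawn among them in the figure of changes. BCL2L11, which encodes BIM, BID, BIK and BAD changed by 0.15, -0.06, 0.35 and 0.09 with the knockdown, all at adjusted p of 0.683 or more. Of 5 tested BCL2L11 probe sets, all 5 had positive changes in induced shHSF1 cells with NVP-HSP990 against induced shNTC cells with DMSO, from 0.18 to 0.58, with 0 called.

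**Figure D3:**
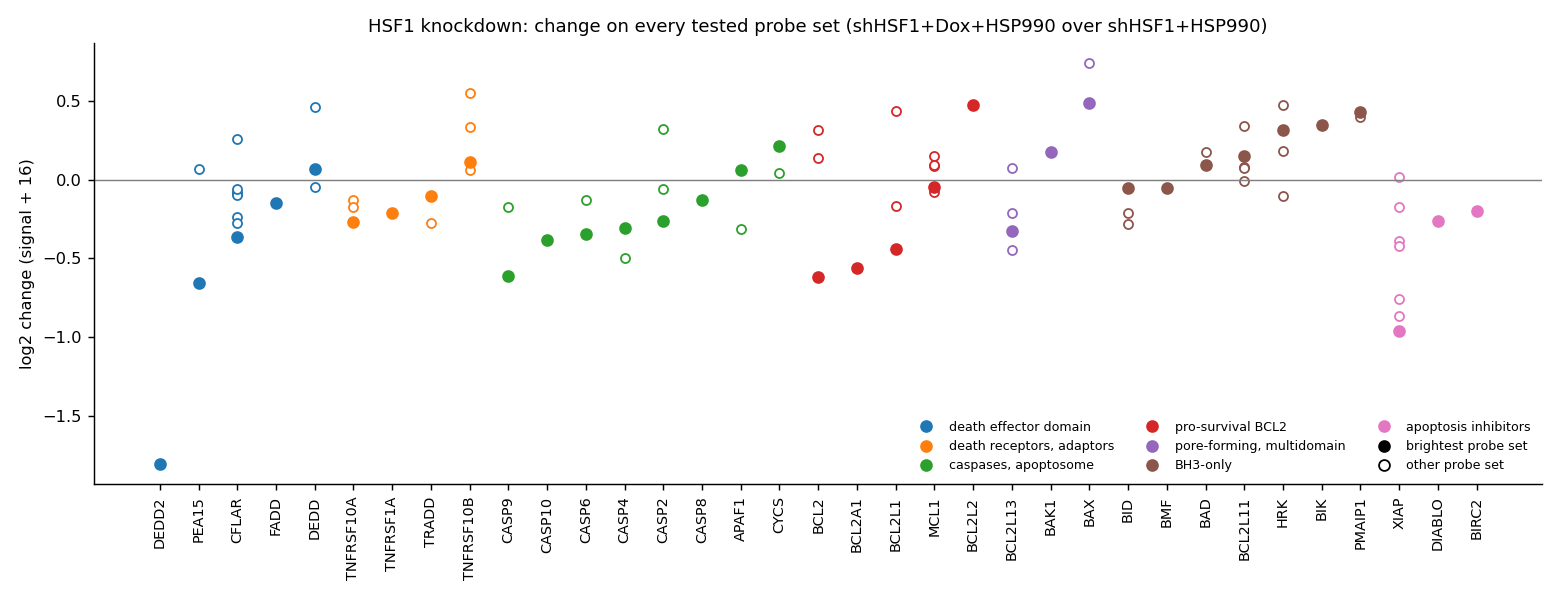
Log2 change (signal + 16) with the HSF1 knockdown on each of the 87 tested probe sets, by gene on the horizontal axis, with filled points for the brightest probe set of a gene and open points for the others. DEDD2 has 1 probe set, at -1.80, XIAP has 7, from -0.96 to 0.02, and PEA15 has 2 that differ, at -0.66 and 0.07.

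XIAP, the inhibitor of apoptosis protein that binds active caspases, came closest to a call after DEDD2 in the knockdown comparison. On its brightest probe set, 228363_at, it had 160.5 and 242.2 in induced shHSF1 cells with NVP-HSP990, 327.5 and 487.9 in uninduced shHSF1 cells with NVP-HSP990, 373.6 and 344.2 in induced shNTC cells with DMSO, and 330.7 and 335.1 in uninduced shNTC cells with DMSO. Both knockdown arrays were below all 6 others. The change was -0.96 (standard error 0.23, unadjusted p = 0.00163, adjusted p = 0.0537), with a 95% interval of -1.47 to -0.46. In 4 of 20 alternatives it was called, among them median centring (adjusted p = 0.0337), and in 16 it was not. The change was -1.24 without the second array of induced or the first array of uninduced shHSF1 cells. On leaving out each array in turn it was -0.69 at its weakest, and over all alternatives -0.51. Between uninduced shHSF1 cells with NVP-HSP990 and uninduced shNTC cells with DMSO, XIAP differed by 0.25 (adjusted p = 1.0). Against induced shNTC cells the knockdown cells with NVP-HSP990 were at -0.81 (standard error 0.23, adjusted p = 0.0699), and the interaction was -1.07 (adjusted p = 0.216).

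The other XIAP probe sets divided. On 225859_at the signals were 56.1 and 83.5 in induced shHSF1 cells with NVP-HSP990, 114.9 and 166.5 in uninduced shHSF1 cells with NVP-HSP990, 120.1 and 132.4 in induced shNTC cells with DMSO, and 114.0 and 130.8 in uninduced shNTC cells with DMSO. The same order held on 225858_s_at, with 120.8 and 199.6 in induced and 212.9 and 352.5 in uninduced shHSF1 cells with NVP-HSP990. These probe sets changed by -0.87 and -0.76 with the knockdown (adjusted p = 0.103 and 0.220 over all probe sets). In all, 6 of the 7 had a negative change, and 206537_at was at 0.02. Of the 6, 5 had non-overlapping arrays and 3 an unadjusted limma p under 0.05. Among all genes tested, 21.8% had arrays below without overlap and 15.3% such a p in either direction. Shares over all probe sets are not given here. Probe sets of 1 gene share its transcript and are not replicates. Against induced shNTC cells, 206537_at changed by 0.64, opposite in sign to the other 6 (adjusted p = 0.125). BIRC2, another inhibitor of apoptosis that acts as a ubiquitin ligase, and DIABLO, which frees caspases from XIAP, changed by -0.20 and -0.26 with the knockdown (adjusted p = 0.655 and 0.694).

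**Figure D4:**
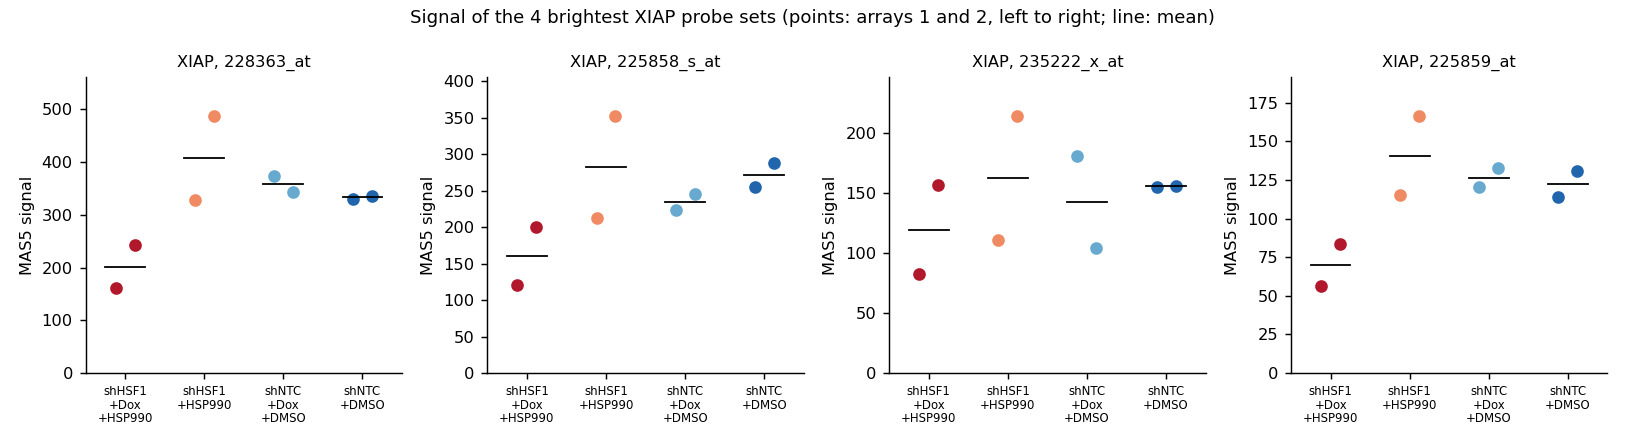
MAS5 signal (linear scale from 0) of the 4 brightest XIAP probe sets in the 4 groups, 1 point per array and a line at the mean. On 228363_at and 225859_at the knockdown arrays, at 160.5 and 242.2 and at 56.1 and 83.5, are below all other arrays, while on 235222_x_at they overlap them.

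On the level of single probe sets, 87 of the 117 passed the filter and 26 were below the median of every array. With the knockdown 1 of the 87 was called lower and 0 higher (DEDD2), where 1.34% of all probe sets tested were lower and 0.536% higher. With the inhibitor alone 1 was called higher (DEDD2) and 0 lower, against 0.126% and 0.00812% of all probe sets, and in the comparison of both together 2 were called higher (204285_s_at of PMAIP1 and 237187_at of HRK) and 0 lower, against 1.85% and 2.14%. Doxycycline in shNTC cells called 0 of the 35 genes and 0% of all genes by limma, with 0 of the 35 at an unadjusted p under 0.05 and 306 of all 12672. The arrays of induced shNTC cells lay above those of uninduced cells in 4 of the 35 (11.4%) and below in 3 (8.57%), where 11.8% and 16.7% of all genes did. By the methods' t-test 2 of the 35 were at an unadjusted p under 0.05 (BCL2 and BID, 5.71%), against 588 of all genes (4.64%), and 0 after adjustment.

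Of 37 further genes tested from lists of relatives in the same pathways, 1 was called with the knockdown (2.70%, against 2.84% of all genes) and 2 in the comparison of both together (5.41%, against 5.83%). Among 11 tested death receptors, ligands and adaptors, 1 was called with the knockdown. TNFAIP3, which encodes A20, a ubiquitin editor that restrains NF-kB and death signalling downstream of TNF, rose by 1.26 (standard error 0.24, adjusted p = 0.0209), with signals of 260.3 and 389.2 in induced and 104.8 and 145.7 in uninduced shHSF1 cells with NVP-HSP990. It was also higher against induced shNTC cells with DMSO, which had 178.9 and 137.9 (change 0.95, adjusted p = 0.0454), a call lost in 9 of 20 alternatives, among them leaving out the second array of induced shHSF1 cells or any array of shNTC cells (changes of 0.67 to 1.12, adjusted p of 0.0635 to 0.281). Without the second array of induced or the first of uninduced shHSF1 cells the knockdown call was lost (0.98 and 1.05, adjusted p = 0.153 and 0.126). FAIM, an inhibitor of FAS-mediated apoptosis, had 249.6 and 225.6 in induced shHSF1 cells with NVP-HSP990, against 381.4 and 402.3 in induced shNTC cells with DMSO, and fell by 0.69 (standard error 0.16, adjusted p = 0.0352). That call was lost in 10 of 20 alternatives, 6 of them leaving out 1 array of a group other than uninduced shHSF1 cells, with adjusted p of at most 0.185. The 7 other caspases and substrates, 9 other BCL2 relatives and 10 other inhibitor of apoptosis and mitochondrial release genes that were tested gave 0 calls in any comparison, with median knockdown changes of -0.21, 0.12 and -0.01.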

How the data were processed

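The authors deposited linear signal intensities from HG-U133 Plus2 arrays, made with MAS5 (version not given in the sources used here) and scaled per array to a mean of 150 after trimming 2% at each end. No further normalization was applied. Of 54675 probe sets, 41091 had a single symbol. The brightest of these (mean log2 over all arrays) stood for a gene. limma 3.58.1 in R 4.3.3 fitted a means model of the 4 groups to log2(signal + 16), with a variance trend (4 residual and 6.36 prior degrees of freedom), Benjamini-Hochberg adjustment and two-sided tests. All 8 arrays share 1 spread. The fit was tested on simulated independent arrays, for the mean estimates of the knockdown comparison alone. The filter and the choice of probe sets were not part of that test. Figures were drawn with matplotlib 3.10.9. Arrays limit precision by their number.

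The genes, lists and tests were chosen with earlier results of these data known. Values in every array are given for DEDD2, DEDD, called genes and, per role, the genes with the smallest p in the knockdown and NVP-HSP990 comparisons. PEA15, BCL2, BMF, CASP8 and TNFRSF10B were added after their values were seen. TNFRSF10A had the smallest p of its role in both. Protein sequences were not used here.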

Additional observations from a re-analysis of the deposited data

Results flagged for a closer look

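DEDD2 was set apart by a difference between groups. The Doxycycline change in shHSF1 cells with NVP-HSP990 minus the Doxycycline change in shNTC cells with DMSO was -1.78 in log2 units (standard error 0.30, limma adjusted p = 0.0261). The change was -1.80 in shHSF1 cells with NVP-HSP990 and -0.024 in shNTC cells with DMSO. The hairpin, the line and the inhibitor all differ between these pairs and cannot be told apart.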

How the results depend on the processing

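The number of arrays, 2 per group, limits the precision. Counts of all genes called, in the order knockdown, NVP-HSP990, both together and interaction, were 360, 28, 739 and 100, and with no filter on low signals they were 221, 16, 450 and 59. With a replicate block they were 752, 44, 1237 and 279. Fitting only the arrays of the comparison gave 95 for the knockdown, and its other counts are not given here. Nor are those for quantile normalization, median centring, 1 added before the log, the mean of all probe sets and no trend. Listed genes called in those settings thus have no share of all genes beside them. The methods' t-test with adjustment gave 0 in each of the first 3 and was not run for the interaction, with 1413, 699 and 1335 genes at an unadjusted p under 0.05. On leaving out 1 array the counts were 123 to 380, 5 to 30, 263 to 802 and 7 to 76. Of the listed genes, the knockdown called 2 with quantile normalization (DEDD2 and PEA15), 2 with median centring (DEDD2 and XIAP), 3 with the replicate block (these 3) and 0 by the t-test, and 1 to 2 without 1 array. NVP-HSP990 called 0 by the t-test and 0 to 1 without 1 array. Both together called 1 with 1 added before the log, quantile normalization, the mean of all probe sets, no trend and only the arrays of the comparison, 0 with no filter and by the t-test, 4 with the replicate block, and 0 to 3 without 1 array. The interaction called 0 with no filter and 0 to 1 without 1 array. At an unadjusted p under 0.05 the t-test gave 6, 5 and 3 of 35 genes. BMF, which passed the filter only through the DMSO arrays, is among these 5 and among the 4 of the replicate block. BCL2A1, below the median signal in both knockdown arrays, is among these 6 and these 5. Doxycycline called 0 of all genes in every setting. DEDD2 kept its knockdown call in 19 of 20 alternatives (t-test, adjusted p = 0.397), with a change of -2.08 to -1.53. The block set the second array of each group, whose titles all carry Repeat 1, apart from the first, whose titles carry no such mark. The samples share only this mark. Deviations of same-numbered arrays correlated at 0.575 between the NVP-HSP990 groups, 0.375 between the shNTC groups and -0.0375 to 0.183 between the others. Causes of these shifts were not tested.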
